A study of Fukomys damarensis and Heterocephalus glaber and Mus musculus with 160 samples.

Results

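Heart chromatin carrying acetylated lysine 27 of histone H3 (H3K27ac) was described by the form of its peaks in 4 rodents, the naked mole-rat (Heterocephalus glaber), the Damaraland mole-rat (Fukomys damarensis), the guinea pig (Cavia porcellus) and the mouse (Mus musculus). All heart H3K27ac peak lists were taken by sample title, which gave 17 of the 160 samples of the series, 116 of which had a peak list. They were 3 naked mole-rat libraries (NMR31, NMR32 and NMR35), 5 Damaraland mole-rat libraries (DMR1, DMR2, DMR3, DMR4 and DMR11), 3 guinea pig libraries (GuineaPig7, GuineaPig8 and GuineaPig9) and 6 mouse libraries (17_36584, 33018, 6837, 6839, 73317 and 1 pool). Each library came from 1 animal except the mouse pool, which held 3 animals and was counted as 1 replicate. All the animals of these 17 libraries were wild-type adult males. The mice were C57BL/6J and 2 months old, the guinea pigs 2.3 months, the naked mole-rats 14 to 17 months and the Damaraland mole-rats 36 to 48 months by estimate. Age and species cannot be told apart in this design. The tissue was diced heart from which blood clots in the ventricles had been removed, so every list averages over the cell types of the whole organ.

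H3K27ac is written by the acetyltransferases p300 and CBP and is found on nucleosomes beside active promoters and active enhancers. Transcription factors open the DNA between such nucleosomes, so the acetylation signal often dips at the factor's binding site and is high on both of its sides. In heart muscle, long stretches of acetylated chromatin lie over genes that mark the cell type, and cardiac factors such as TBX5 bind within active enhancers. H3K4me3 marks promoters, and an H3K27ac peak that overlaps an H3K4me3 peak is therefore usually promoter-proximal.

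A peak is an interval in which a library held more reads than its untreated chromatin control (the input), with a fold over background and a position of greatest signal (the summit). The 17 lists held 1541394 peaks in all, from 51446 (DMR1) to 139112 (DMR2), and covered 34.5 to 90.7 megabases (Mb) in Damaraland mole-rats, 66.1 to 69.7 Mb in naked mole-rats, 62.5 to 80.0 Mb in guinea pigs and 41.9 to 92.8 Mb in the mouse. Read depth is unknown, since a peak list holds no read counts, and the number of peaks was not compared. The lists' own limits differed. The lowest −log10 q was 1.30 to 1.36, the smallest width was 176 to 293 bases and 3.17% to 13.4% of a list's peaks had exactly that width. Library names begin with do (11 libraries) or vl (6 libraries), whose meaning the labels do not give. The smallest gap between peaks was 51 bases in every do list and 70 to 77 bases in every vl list. All 6 mouse libraries were do, as were NMR35, DMR2, DMR4, GuineaPig7 and GuineaPig8. Every naked mole-rat, Damaraland mole-rat and guinea pig library was set against the input of its own animal, and only 1 of the 6 mouse libraries, the pool, was. Peaks lay on 2719 to 2977 scaffolds in naked mole-rats, 996 to 1626 in Damaraland mole-rats, 350 to 361 in guinea pigs and 29 to 35 chromosomes and scaffolds in the mouse. Heart marker genes were not looked up, since an annotation of these builds was not used here. The tissue label was checked against liver instead. Of the 51446 top peaks of a heart list, 64.3% to 75.7% were found in another heart list of the species on average and 36.2% to 49.0% in a liver H3K27ac list.

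Median peak width did not separate the 4 hearts. Median width was 458, 429 and 348 bases in NMR31, NMR32 and NMR35, a mean of 412 ± 57.0 (SD, n = 3). It was 464, 342, 415, 461 and 439 bases in DMR1, DMR2, DMR3, DMR4 and DMR11, a mean of 424 ± 50.0 (n = 5). The guinea pig libraries gave 411, 479 and 485 bases, a mean of 458 ± 41.1 (n = 3). The mouse ranged from 355 bases in the pool to 705 in 6837 with a median of 486, a mean of 502 ± 113 (n = 6). All 4 species overlapped, and the spread within the mouse was wider than the distance between any species means. The lowest p was that of Damaraland mole-rat below mouse, -0.22 on the log2 scale (exact permutation p = 0.216). Every p-value given here for species is from a two-sided exact permutation test of species labels over libraries, and it rests on the spread between libraries. That spread holds differences of animal, read depth, library series and input together.

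Wide peaks made up a small share of each list and a large share of its bases. Peaks of 2000 bases or more were 3.24% to 6.04% of peaks in naked mole-rats, 3.89% to 6.58% in Damaraland mole-rats, 6.11% to 7.94% in guinea pigs and 4.34% to 12.7% in the mouse. They held 17.8% to 37.9% of the covered bases over the 17 lists. The tail of the width distribution was measured within a list as the 95th percentile over the median. This ratio was 4.82, 4.72 and 4.78 in naked mole-rats, the tightest species. It was 3.91 in DMR1 and 4.59 to 5.21 in the other Damaraland mole-rats, 4.74 to 5.32 in guinea pigs and 4.18 to 5.48 in the mouse with a median of 4.35. The species overlapped, and the lowest p was that of guinea pig above mouse by 0.14 on the log2 scale (exact permutation p = 0.226). Within each list wider peaks had a higher fold, with a Spearman correlation across peaks of 0.572 (DMR1) to 0.747 (GuineaPig7), which is a description since the peaks of a list are not independent.

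Fold over background was nearly the same in the 3 naked mole-rats and varied most in the mouse. Median fold was 5.39, 5.35 and 5.45 in NMR31, NMR32 and NMR35. In DMR1, DMR2, DMR3, DMR4 and DMR11 it was 5.71, 5.60, 5.72, 4.94 and 5.46. The guinea pigs had 5.55, 5.53 and 6.17, and the mouse ran from 4.89 in 17_36584 to 6.69 in 33018 with a median of 5.63. Each naked mole-rat value lay below each guinea pig value, a difference of -0.09 on the log2 scale (exact permutation p = 0.1, the smallest that 3 against 3 can give, adjusted p = 0.643). In the mouse the highest medians, 6.69 and 6.36, came from 33018 and 6839, whose inputs were vl libraries of other animals. The third library with such an input, 6837, had 5.59, below the 5.66 of the pool with its own do input, and whether the input plays a part was not tested. In tissue, fewer cells with the mark and less mark in each cell cannot be told apart in a fold.

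Neighbouring peaks had the shortest mean gap in naked mole-rats, within the ranges of the Damaraland mole-rat and the mouse. The median distance from the end of a peak to the start of the next was 987, 958 and 754 bases in NMR31, NMR32 and NMR35. It was 1204, 1410 and 1733.5 bases in GuineaPig7, GuineaPig8 and GuineaPig9, with no overlap between these species and a difference of -0.68 on the log2 scale (exact permutation p = 0.1, adjusted p = 0.643). In Damaraland mole-rats DMR1 stood apart with 2149 bases against 773 to 1170 in the other 4, and DMR1 also had the shortest list. The mouse spanned the widest range, from 707 bases in the pool and 877 in 73317 to 3955 in 6837, with a median of 2025.5. The share of gaps under 1000 bases gave the same order. It was 50.2%, 50.6% and 53.9% in naked mole-rats, 43.0% to 53.6% in Damaraland mole-rats, 44.3% to 48.1% in guinea pigs and 36.3% to 54.7% in the mouse. Naked mole-rat exceeded guinea pig by 5.26 percentage points without overlap (exact permutation p = 0.1, adjusted p = 0.643). The 2 mouse libraries with the shortest gaps, the pool and 73317, had the longest mouse lists, 104892 and 109724 peaks, and the part of list length was measured with equal numbers of peaks.

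The median position of the summit varied little between libraries, and the species overlapped. Its offset was taken as the distance from the centre in percent of the distance between centre and edge, so that 0 is a centred summit. The list medians were 31.2%, 30.6% and 31.5% in naked mole-rats and 29.6%, 31.7%, 31.2%, 30.9% and 31.3% in DMR1, DMR2, DMR3, DMR4 and DMR11. They were 30.9%, 30.1% and 29.8% in guinea pigs and 29.1% to 31.1% with a median of 30.1% in the mouse. The naked mole-rat mean exceeded the mouse mean by 1.01 points (exact permutation p = 0.0595), the lowest p of the family. Over the 6 measures and 6 species pairs, 0 of 36 comparisons had an adjusted p under 0.05 by the Benjamini-Hochberg method, and 0 had an unadjusted p under 0.05. Only 3 of the 36 had no overlap between libraries, all of them naked mole-rat against guinea pig.

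**Figure D1:**
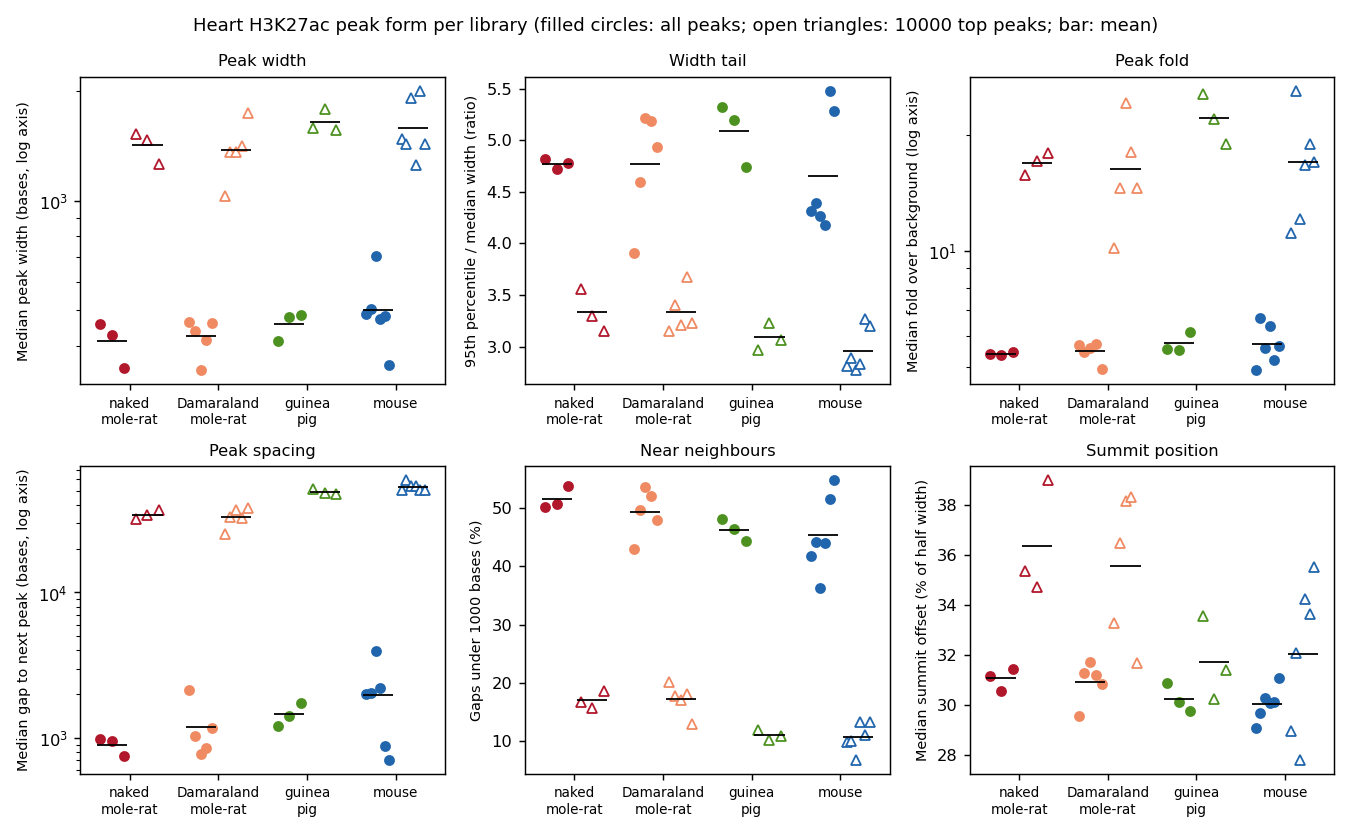
Each panel plots 1 of the 6 measures per library for the 4 species, with circles for all peaks, triangles for the 10000 top peaks and a bar at the species mean; width, fold and spacing are on log axes. With all peaks the species overlap in most panels, while with the 10000 top peaks the spacing of the mole-rats, 25134.5 to 38173.5 bases, lies below that of the other 2 species, 47511 to 58969.5 bases.

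The lists were then cut to equal numbers, keeping the 51446 peaks with the lowest deposited p of each, as many as DMR1 holds. Mean widths became 700.5 bases in naked mole-rats, 701 in Damaraland mole-rats, 772 in guinea pigs and 695 in the mouse. Mean folds were 7.71, 7.72, 8.09 and 7.02 in the same order. Mean gaps were 3096, 3435, 5073 and 4059 bases, and the naked mole-rat again lay below the guinea pig, with 2950 to 3298 bases against 4732.5 to 5723. Again 0 of 36 comparisons passed and 0 had an unadjusted p under 0.05, with a lowest adjusted p of 0.514 (exact permutation test). The width difference of the Damaraland mole-rat from the mouse went from -0.22 with all peaks to 0.01 on the log2 scale.

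Among the 10000 top peaks the mole-rat hearts had shorter distances between neighbours than the guinea pig and mouse hearts. The median gap was 31818, 34187 and 37027 bases in NMR31, NMR32 and NMR35 and 25134.5, 36837, 32655.5, 38173.5 and 32918 bases in DMR1, DMR2, DMR3, DMR4 and DMR11. It was 51173, 48416 and 47511 bases in the guinea pigs and 50454 to 58969.5 bases in the mouse with a median of 52456.5. No mole-rat library overlapped a guinea pig or mouse library, whereas the 2 mole-rats overlapped each other and the guinea pig overlapped the mouse. The Damaraland mole-rat differed from the mouse by -0.70 on the log2 scale, a ratio of 0.617 (exact permutation p = 0.00216, the smallest possible, adjusted p = 0.0779). The naked mole-rat differed from the mouse by -0.63 (p = 0.0119 by exact permutation, adjusted p = 0.107). The Damaraland mole-rat differed from the guinea pig by -0.58 (p = 0.0179 by exact permutation, adjusted p = 0.107), and the naked mole-rat by -0.52, where 0.1 is the smallest exact permutation p. None of these passed after adjustment. Within the do series the order was the same, with 37027 bases in NMR35, 36837 in DMR2 and 38173.5 in DMR4 against 51173 and 48416 in GuineaPig7 and GuineaPig8. Within the vl series NMR31, NMR32, DMR1, DMR3 and DMR11 had 25134.5 to 34187 bases and GuineaPig9 had 47511.

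The same lists held more close neighbours in the mole-rats. Of the gaps between the 10000 top peaks, 16.8%, 15.7% and 18.7% were under 1000 bases in the naked mole-rats and 20.2%, 17.2%, 18.1%, 13.0% and 17.8% in DMR1, DMR2, DMR3, DMR4 and DMR11. The guinea pigs had 11.95%, 10.2% and 10.96% and the mouse 6.81% to 13.3% with a median of 10.5%. Only DMR4 lay within the mouse range, and the Damaraland mole-rat exceeded the mouse by 6.55 points (exact permutation p = 0.00649, adjusted p = 0.107). A gap is measured within a scaffold, so the peaks were also limited to scaffolds on which peaks of the series reach 1 Mb, which hold 72.0% to 72.3% of the naked mole-rat's peaks and 93.1% to 93.6% of the Damaraland mole-rat's. With the 10000 top peaks of those scaffolds, a setting chosen after the data had been seen, 2 of 36 comparisons passed. These were the Damaraland mole-rat's shorter gaps against the mouse (-0.75 on the log2 scale, 24039 to 36651.5 bases against 50454 to 58891.5) and its larger share of gaps under 1000 bases (7.10 points more), both with an adjusted p of 0.0390 by the exact permutation test. The 2 comparisons that passed were taken from the same gaps and are not independent. The limit also draws the 10000 peaks from fewer scaffolds. The mean gap went from 34344 to 26152 bases in naked mole-rats and from 33144 to 31902 in Damaraland mole-rats. It went from 49033 to 49660 in guinea pigs and from 53253 to 53242 in the mouse. The number of scaffolds, given above, moved with the species, and its part in the spacing was not tested.

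**Figure D2:**
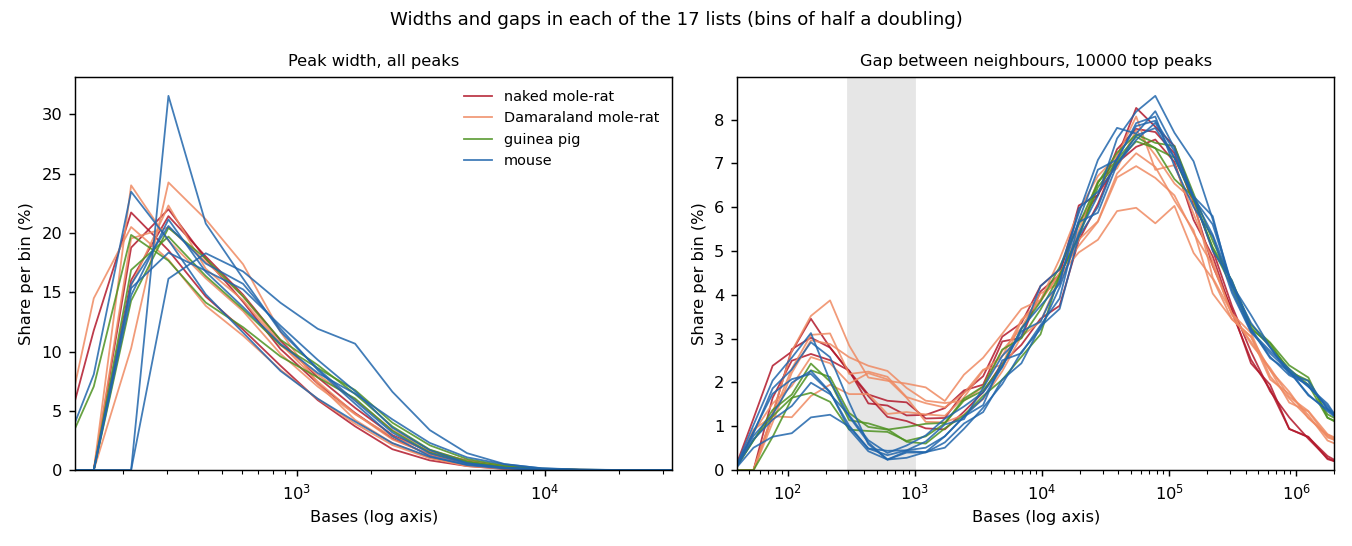
The left panel plots the share of peaks per bin of width for all peaks of each of the 17 lists, and the right panel the share of gaps per bin of length between neighbours of the 10000 top peaks, both against bases on a log axis with 1 line per library coloured by species. The grey band marks gaps of 300 to 1000 bases, which hold 4.96% to 7.86% of the gaps in the mole-rats, 2.82% to 3.48% in the guinea pigs and 1.35% to 2.24% in the mice.

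Of the 6.55 points between the Damaraland mole-rat and the mouse, 5.08 lay in gaps of 300 to 1000 bases, a class set after the distributions had been seen. Of all gaps between the 10000 top peaks, 5.84%, 5.28% and 4.96% fell in this class in NMR31, NMR32 and NMR35. In DMR1, DMR2, DMR3, DMR4 and DMR11 the share was 7.39%, 6.91%, 7.86%, 5.18% and 7.05%. It was 3.14%, 2.82% and 3.48% in the guinea pigs and 1.35% to 2.24% in the mouse with a median of 1.83%. The mole-rats, the guinea pig and the mouse formed 3 ranges that did not overlap, also within the do series alone (NMR35, DMR2 and DMR4 against GuineaPig7 and GuineaPig8 and the mice). The differences from the mouse were 5.08 points for the Damaraland mole-rat (exact permutation p = 0.00216), 3.56 points for the naked mole-rat (p = 0.0119 by exact permutation) and 1.35 points for the guinea pig (p = 0.0119 by exact permutation), each with an adjusted p of 0.0714 over the 36 comparisons of 6 measures chosen after the data had been seen. On scaffolds reached to 1 Mb the means were 6.28%, 7.14%, 3.19% and 1.80%, in the same order of species. With 51446 peaks the means were 14.6%, 15.4%, 10.8% and 11.8%, and the separation from the mouse was lost. Mouse 17_36584, with 14.8%, lay above NMR35, DMR2 and DMR4 (13.5%, 13.5% and 12.9%), and the guinea pigs, with 9.59% to 12.2%, lay within the mouse range of 9.06% to 14.8%. With all peaks the ranges were 20.5% to 22.5%, 19.1% to 21.7%, 16.1% to 17.7% and 13.3% to 19.9%, where DMR1 lay below the mouse pool. Gaps under 300 bases overlapped more between species, with 7.35% to 8.81% in guinea pigs, 7.80% to 12.8% in Damaraland mole-rats, 10.5% to 13.7% in naked mole-rats and 5.20% to 11.5% in the mouse.

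In 7 of the 8 mole-rat hearts, most gaps of 300 to 1000 bases between strong peaks had a centre outside every other list, and in DMR1 fewer did. The centre of such a gap lay in no peak of any of the 24 other naked mole-rat histone lists of either tissue in 68.2%, 71.8% and 69.2% of the gaps of NMR31, NMR32 and NMR35. In DMR1, DMR2, DMR3, DMR4 and DMR11 this share was 48.5%, 79.8%, 73.9%, 75.3% and 69.8% of gaps, against 26 other lists. It was 70.3%, 57.5% and 45.1% in the guinea pigs against 17 other lists, and 8.07% to 24.2% in the mouse against 28. The mouse libraries lay below all those of the other 3 species, though a larger number of other lists leaves fewer centres empty and the mouse had the most. Set against single heart H3K27ac lists of the species, which does not depend on that number, a mean of 30.1% of the mouse gap centres were covered by another list, with a range of 14.4% to 46.1%. Coverage was 11.1% to 16.6% in naked mole-rats, 8.01% to 12.8% in 4 Damaraland mole-rats and 30.8% in DMR1, and 10.9% to 20.8% in guinea pigs. The Damaraland mole-rat differed from the mouse by -16.2 points (exact permutation p = 0.0325, adjusted p = 0.117). Gaps under 300 bases were empty in every other list far less often in each library, in 13.4% to 19.1% of cases in naked mole-rats, 2.76% to 36.5% in Damaraland mole-rats, 4.25% to 8.66% in guinea pigs and 0.350% to 5.97% in the mouse. The sequence under the gaps was not used here, and the number of scaffolds moved with this share too, with a part that was not tested.

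TBX5, a T-box transcription factor of heart development and of adult heart muscle, was mapped in 1 Damaraland mole-rat heart, that of a female aged 48 months by estimate, DMR6, which gave no heart H3K27ac list. Its list held 139418 peaks, of which 68.3% had the smallest width, 389 bases, so each was reduced to its summit. TBX5 summits were densest in the short gaps between acetylated peaks. In gaps under 300 bases between the 10000 top peaks there were 0.508, 0.272, 0.450, 0.275 and 0.481 summits per kilobase (kb) in DMR1, DMR2, DMR3, DMR4 and DMR11, from 103, 39, 71, 30 and 80 summits. Inside the peaks there were 0.118 to 0.151 per kb, and in the outer 150 bases of the peaks that flank the short gaps 0.207 to 0.301 per kb. The short gaps exceeded both in all 5 libraries. The excess was smaller in the 2 do libraries, DMR2 and DMR4, than in the 3 vl libraries, whose shortest gaps are longer, and the part of the series was not tested.

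In gaps of 300 to 1000 bases TBX5 density was lower than in the short gaps in every library. It was 0.0415, 0.0590, 0.0411 and 0.0549 summits per kb in DMR2, DMR3, DMR4 and DMR11 and 0.126 in DMR1. In gaps of 3000 to 10000 bases it was 0.0402 to 0.0521 per kb. The 150 bases just outside a peak edge with no neighbour within 3000 bases held 0.0574 to 0.129 per kb, less than the short gaps of the same library in all 5. Wide peaks held a TBX5 peak more often than narrow ones: 35.8% to 43.4% of peaks of 2000 bases or more against 4.56% to 7.40% of those under 300 bases, beside 9.26% to 14.0% of all peaks, and a longer interval has more room for an overlap. No test was made over these values, since there was 1 TBX5 library.

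**Figure D3:**
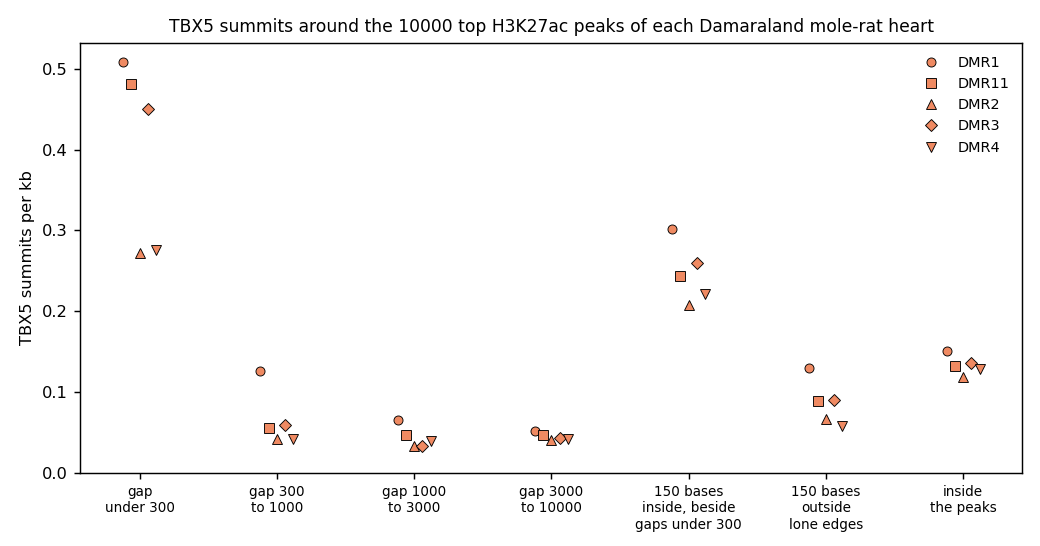
TBX5 summits per kb are plotted for 7 places around the 10000 top H3K27ac peaks, with 1 symbol for each of the 5 Damaraland mole-rat hearts. Gaps under 300 bases hold 0.272 to 0.508 summits per kb, more than any other place in each heart, and gaps of 300 to 1000 bases hold 0.0411 to 0.126.

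In wide peaks the summit lay farther from the centre in the mole-rats. In peaks of 1000 bases or more the median offset was 40.02% to 41.9% in naked mole-rats with a mean of 40.9% ± 0.937 (SD, n = 3), and 37.1% to 44.3% in Damaraland mole-rats with a mean of 41.0% ± 2.79 (n = 5). It was 35.0% to 35.6% in the guinea pig (mean 35.3% ± 0.320, n = 3) and 33.5% to 37.5% in the mouse (mean 35.9% ± 1.54, n = 6). The naked mole-rat lay above both the guinea pig and the mouse without overlap, while the lowest Damaraland mole-rat, DMR4, lay within the mouse range. Differences from the mouse were 5.02 points for the naked mole-rat (exact permutation p = 0.0119) and 5.18 points for the Damaraland mole-rat (exact permutation p = 0.00649), both with an adjusted p of 0.0714. With the limit at 2000 bases the ranges were 36.9% to 39.2%, 33.3% to 41.1%, 31.2% to 33.3% and 30.0% to 33.0%. There 1 comparison passed, the Damaraland mole-rat above the mouse by 5.57 points with no overlap (exact permutation p = 0.00216, adjusted p = 0.0390). The margin was narrow, since the lowest Damaraland mole-rat, DMR4, had 33.3% and the highest mouse, 6839, had 33.0%. Within the do series DMR2 and NMR35 had 36.5% and 39.2%, while DMR4 lay next to GuineaPig7, which had 33.3% too. In narrow peaks, of 300 to 500 bases, the species overlapped, with 17.6% to 26.8%, 17.3% to 25.4%, 17.4% to 26.3% and 18.1% to 26.997%.

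Peaks overlapping an H3K4me3 peak of the same animal's heart are called promoter peaks here, although no annotation was used to place promoters. They could be told from the others in 15 libraries, since mouse 33018 and 73317 had no such list. They were 18.8% (DMR11) to 35.8% (DMR1) of all H3K27ac peaks. In all 15 they were wider and of higher fold. An overlap of 1 base placed a peak on H3K4me3, and a longer interval has more room for an overlap. Fold rose with width within each list, so the rule favours both directions, and its share in them was not tested. Median widths on and off H3K4me3 were 687 and 409 bases in NMR31, 737 and 385 in NMR32, and 644 and 301 in NMR35. In the Damaraland mole-rats they were 543 and 427 in DMR1, 709.5 and 293 in DMR2, 650 and 359 in DMR3, 913 and 398 in DMR4, and 692 and 396 in DMR11. Guinea pig promoter peaks had 975 and 336, 1009 and 412, and 866 and 417 bases, and the values in mouse 17_36584, 6837, 6839 and the pool were 873 and 418, 1186 and 572, 834 and 391, and 685.5 and 300 bases. The mean log2 width ratio was 0.93 in naked mole-rats, 0.90 in Damaraland mole-rats, 1.29 in guinea pigs and 1.10 in the mouse, and the log2 fold ratio 0.89, 0.82, 1.28 and 0.79. The guinea pig width ratios, 1.05 to 1.54, overlapped those of the other 3 species, and with equal numbers of top peaks the mean was larger in the mouse, 0.92, than in the guinea pig, 0.74, with 0.37 and 0.34 in naked and Damaraland mole-rats. In each species every library had the same sign, which gives the smallest exact sign-flip p possible, 0.25, 0.0625, 0.25 and 0.125, so 0 of 8 tests could pass (adjusted p = 0.25). The H3K4me3 lists differed in kind, with median widths of 191 bases in NMR35 and 188 in DMR4, which hold 55315 and 53676 peaks.

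At equal numbers of peaks the width of promoter peaks over the others did not overlap between the mole-rats and the other 2 species. The ratio was 1.22, 1.33 and 1.32 in NMR31, NMR32 and NMR35 and 1.20 to 1.33 in the 5 Damaraland mole-rats. It was 1.88, 1.53 and 1.62 in the guinea pigs and 1.76 to 1.97 in the 4 mice. The Damaraland mole-rat differed by -0.58 on the log2 scale from the mouse (exact permutation p = 0.00794, adjusted p = 0.0612) and by -0.40 from the guinea pig (exact permutation p = 0.0179, adjusted p = 0.0643). The naked mole-rat differed by -0.55 from the mouse (exact permutation p = 0.0286, adjusted p = 0.0857), and none of the 3 passed. The H3K4me3 lists that define the classes separated in the same way. Their median widths were 188 to 740 bases in the mole-rats and 757 to 1138 in the guinea pigs and mice. The part of these lists in the contrast was not tested.

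The summit of wide promoter peaks was shifted in different directions. In peaks of 1000 bases or more, the offset on H3K4me3 minus that elsewhere was -1.43, -2.86 and -1.90 points in NMR31, NMR32 and NMR35. It was 0.58, 3.20, 4.30 and 2.00 points in DMR1, DMR2, DMR3 and DMR11 and -1.65 in DMR4. The guinea pigs gave -4.15, -4.90 and -4.45 and the mice -9.16, -7.22, -6.01 and -6.76, so promoter summits were nearer the centre than others in all guinea pig, mouse and naked mole-rat libraries. In 4 of the 5 Damaraland mole-rats they were farther from it. The Damaraland mole-rat differed from the mouse by 8.97 points (exact permutation p = 0.00794, adjusted p = 0.0714) and from the guinea pig by 6.18 points (exact permutation p = 0.0179, adjusted p = 0.0804). The naked mole-rat differed from the mouse by 5.22 points (exact permutation p = 0.0286, adjusted p = 0.114). These classes rest on the same H3K4me3 lists, whose widths also separated the mole-rats from the guinea pig and mouse, and their part was not tested.

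**Figure D4:**
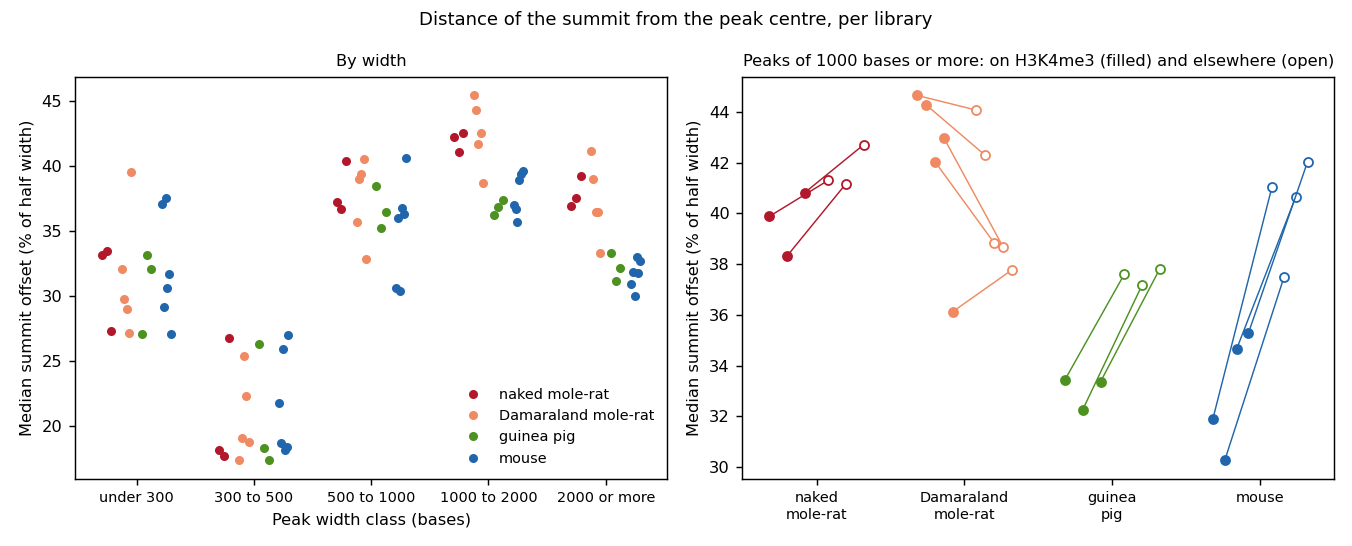
The left panel plots the median distance of the summit from the centre, in percent of the distance from centre to edge, by peak width class with 1 point per library; the right panel splits peaks of 1000 bases or more into those on H3K4me3 (filled) and elsewhere (open), with a line joining the 2 values of a library. Mole-rat points lie above the others in most libraries in the 2 widest classes, and the lines run downward to the right only in 4 Damaraland mole-rats.

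Reproducibility was measured for each pair of libraries of a species as the percent of peaks of one that overlapped a peak of the other by at least 50% of the shorter, averaged over both directions. It was 60.0% to 61.7% over the 3 naked mole-rat pairs (mean 61.0% ± 0.892), 58.6% to 64.5% over the 10 Damaraland mole-rat pairs (mean 61.0% ± 1.72) and 65.6% to 67.3% over the 3 guinea pig pairs (mean 66.6% ± 0.882). Over the 15 mouse pairs it was 58.1% to 71.8% (mean 63.1% ± 5.31). Pairs share libraries, so these are descriptions without a test. With all peaks the 3 guinea pig pairs lay above every naked mole-rat and Damaraland mole-rat pair. The shared fraction of bases (Jaccard index) was 0.511 to 0.520 in naked mole-rats, 0.329 to 0.544 in Damaraland mole-rats, 0.563 to 0.581 in guinea pigs and 0.418 to 0.587 in the mouse. With equal numbers of peaks the means were 70.2%, 69.7%, 73.7% and 68.2%. There the guinea pig pairs, 71.8% to 74.996%, still lay above the naked mole-rat pairs, 69.9% to 70.4%, but overlapped the Damaraland mole-rat pairs, 66.6% to 72.4%.

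With all peaks, mouse pairs differed with the library series of their inputs. The 3 pairs among 33018, 6837 and 6839, whose inputs were vl libraries, gave 71.3% to 71.8%. The 3 pairs among 17_36584, 73317 and the pool, whose inputs were do libraries, gave 58.9% to 60.2%, and the 9 mixed pairs 58.1% to 67.8%. Libraries 17_36584 and 73317 shared an input from another animal and gave 60.2%. With equal numbers of top peaks this grouping was lost: the vl pairs gave 72.2% to 74.0% and the do pairs 65.3% to 67.2%, while the mixed pairs ran from 60.9% to 77.5%, and the 3 highest mouse pairs were mixed pairs of 73317 with 33018, 6839 and 6837 (77.5%, 75.7% and 74.98%). The input series and the animals cannot be told apart here. In Damaraland mole-rats 81.8% to 88.7% of the peaks of DMR1 were found in each other library, while 28.5% to 42.0% of theirs were found in DMR1, the shortest list. Damaraland mole-rat pairs of the same library series averaged 62.1% and those of different series 60.4%.

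The share found in another library decreased with rank in every list. Peaks ranked 1 to 5000 by deposited p were found in another library of the species in 99.5% of cases or more on average in all 4 species. At ranks 20001 to 30000 the mean was 88.8% in naked mole-rats, 84.5% in Damaraland mole-rats, 91.7% in guinea pigs and 77.9% in the mouse. At ranks 40001 to 50000 it was 61.6%, 59.2%, 62.9% and 49.8%, the single mouse libraries running from 40.5% to 64.4%. Each peak was looked up in the whole lists of the other libraries, which were not cut to equal numbers. They held 93501 to 116919 peaks in naked mole-rats and 51446 to 139112 in Damaraland mole-rats. Guinea pig lists held 79688 to 97784 peaks and mouse lists 57663 to 109724. The part of list length in these shares was not tested. Peaks found in every other library of the species were wider and of higher fold than those found in none in all 17 lists. In NMR31 the medians were 759 against 289 bases and 7.43 against 4.43 fold, in DMR11 883 against 254 bases and 8.52 against 4.21 fold, in GuineaPig8 960 against 283 bases and 8.62 against 4.42 fold, and in the mouse pool 935 against 235 bases and 9.78 against 4.88 fold. A longer peak has more room for an overlap and fold rose with width, so the overlap rule favours both directions, and its share was not tested. Peaks found in every other library held 46.8% to 51.5% of a naked mole-rat list but 71.9% to 75.3% of its bases. When peaks of all libraries of a species were joined where they overlap, 32.9% of 134799 naked mole-rat regions, 17.5% of 157673 Damaraland mole-rat regions, 38.5% of 110994 guinea pig regions and 18.9% of 124798 mouse regions had a peak in every library. These shares depend on the number of libraries, which was 3, 5, 3 and 6, and 43.3% to 48.9% of regions came from 1 library.

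**Figure D5:**
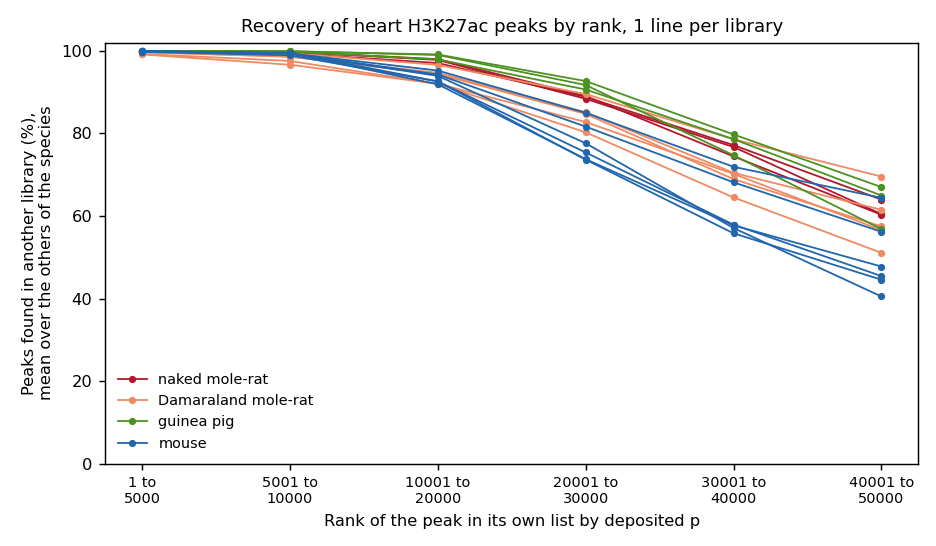
The percent of a library's heart H3K27ac peaks found in another library of its species, averaged over the others, is plotted against the rank of the peak by deposited p, with 1 line per library coloured by species. All 17 lines start near 100%, and at ranks 40001 to 50000 the mouse mean is 49.8% and the guinea pig mean 62.9%. The other lists were taken whole and differ in length.

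The widest regions found in every library of a species were named by position, since no gene could be assigned. In the guinea pig (build Cavpor3.0), DS562880.1:13287232-13321524 held a widest peak of 31474, 33994 and 21142 bases, a mean of 28870.0 ± 6810 (SD, n = 3), and of 839 to 4015 bases in the 3 liver lists. In the Damaraland mole-rat (DMR_v1.0), KN122579.1:596023-629860 held a widest peak of 12053, 13774, 20881, 23337 and 18734 bases in DMR1, DMR2, DMR3, DMR4 and DMR11, and KN123563.1:1869910-1889339 one of 10107 to 17213 bases, against at most 831 bases in liver, where 1 of 5 lists had no peak. In the naked mole-rat (HetGla_1.0), JH168785.1:715197-740370 held 22355, 16810 and 16795 bases in NMR31, NMR32 and NMR35 and overlapped the liver values of 8925 to 26721 bases. JH166829.1:1028099-1052002 held 15392 to 23845 bases in the heart and 2417 to 3312 in liver, and JH165641.1:574687-597941 a mean of 16043 ± 5830 (n = 3) and a peak in 0 of 4 heart H3K4me3 lists. In the mouse (GRCm38), chr3:88136038-88153682 held a mean of 13662 ± 2700 bases (n = 6). The second mouse region, chr1:180383732-180412004, held a mean of 12998 ± 6892 bases (n = 6). In 10 of the 12 widest regions the lowest heart value exceeded the highest liver value, and these regions had been chosen for their width in heart.

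The regions of highest fold were shorter, and liver fold was often as high there, although they had been chosen in heart. The mean liver fold exceeded the mean heart fold in 9 of 12, and the highest liver fold exceeded the highest heart fold in 9 of 12. The highest mean was 107.5 ± 24.4 fold (n = 3) in guinea pigs, at DS562899.1:3074664-3078015, against 111.5 to 135.1 fold in liver. In the mouse chr1:64116796-64123374 reached 61.8 ± 43.3 fold (n = 6), and in Damaraland mole-rats KN122596.1:2831571-2833883 reached 53.5 ± 23.5 (n = 5). In naked mole-rats JH168905.1:2699209-2701956 had 57.4, 58.2 and 58.2 fold, a mean of 57.9 ± 0.488 (n = 3), while JH172503.1:27368-28746 had 71.4, 77.9 and 21.6 fold. Over these 12 regions the SD of the fold between libraries ran from 0.488 to 43.3.

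Set against liver H3K27ac lists of the same species, no form measure of the heart passed the test. The liver lists included the female DMR6 and NMR30, which was younger than the naked mole-rats of the heart lists. Libraries were permuted as independent, although some animals gave both tissues. The summit offset was 29.1% to 31.1% in the 6 mouse hearts and 26.8% to 27.3% in the 4 mouse livers, 3.02 points higher without overlap (exact permutation p = 0.00476, adjusted p = 0.114). With all peaks the guinea pig heart peaks were narrower than the liver peaks, 411 to 485 bases against 576 to 601. Their median fold was higher, 5.53 to 6.17 against 5.06 to 5.12. Each had the smallest exact permutation p of 0.1 (adjusted p = 0.24). The naked mole-rat hearts had lower fold than the livers, 5.35 to 5.45 against 5.49 to 6.94 (exact permutation p = 0.0536), and the Damaraland mole-rat hearts 4.94 to 5.72 against 5.65 to 7.22 (exact permutation p = 0.0238), both with an adjusted p of 0.24. Of 24 comparisons with all peaks, 0 passed, 2 had an unadjusted p under 0.05 and 6 had no overlap between heart and liver libraries. With the 51446 top peaks of each list 0 of 24 passed, 4 had an unadjusted p under 0.05 and 8 had no overlap. There the guinea pig widths still did not overlap, 706 to 872 bases in heart and 1086 to 1202 in liver. The guinea pig folds did, 7.88 to 8.20 in heart and 7.98 to 8.64 in liver. The exact permutation p of 0.00476 is the smallest that any of the 24 could give, and alone it adjusts to 0.114. A single complete separation could therefore not pass, and the outcome does not show that the tissues are alike.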

How the data were processed

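Chromatin immunoprecipitation and sequencing of heart H3K27ac gave 1 deposited narrowPeak list per library, called against 1 input named in the file name, and per the labels' protocols chromatin was sonicated to about 300 bases. MACS2 is named in the submitters' processing notes; its version is not given in the sources used here, nor are the aligner and filters. Fold in the lists is the authors' linear fold enrichment, and the deposited −log10 p and −log10 q are the caller's own; the deposited score was not used. Builds are those in the file names. The members, lists and measures were chosen with earlier results of these data known.

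From the lists, width, gap, fold and summit offset were taken per library in Python 3.11.15 (pandas 2.3.3, NumPy 2.4.6, SciPy 1.17.1) and plotted in Matplotlib 3.10.9. Top peaks were ranked by deposited −log10 p. Species were compared by two-sided exact permutation tests over libraries with Benjamini-Hochberg adjustment over 36 comparisons, promoter classes by exact sign-flip tests, and tissues by permutation over 24 comparisons. The tests were checked on simulated lists. Regions were named by rule: per species, the 3 widest and the 3 of highest fold among regions with a peak in every library. Gaps of 300 to 1000 bases, wide-peak summits, promoter contrasts between species and TBX5 densities were added after the data had been seen. The 24 tissue comparisons did not pair libraries of 1 animal. In an alternative only, heart and liver lists of 10 animals were paired, since the labels name the same animal, and the mouse had no such animal. Without an annotation of the builds, the planned marker genes were not analysed here, and 1 sample of the series whose labels name different species was left without a group.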

Additional observations from a re-analysis of the deposited data

Results flagged for a closer look

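Among 24 groups of 4 to 6 Damaraland mole-rat or mouse libraries tested for a library far from the others, 2 had one. Chance flags about 1 group in 20. Naked mole-rats and guinea pigs, with 3 libraries each, were too few for this test. Both were DMR1, the Damaraland mole-rat with the shortest list. Its median gap was 2149 bases, against 1170 bases in the next library. That distance was 0.711 of the range of the 5 libraries, barely above the limit of the test. The centres of its gaps of 300 to 1000 bases were covered by another heart H3K27ac list in 30.8% of cases, against 12.8% in the next library. Without DMR1, 0 of 36 species comparisons passed, as with it, and the lowest adjusted p went from 0.643 to 0.45 (exact permutation test).

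In 3 contrasts with all peaks, all animals with both tissues moved one way in one species and the opposite way in another. They were picked out after all 6 measures had been looked at in every pair of species with such animals, and the differences were not tested. Heart minus liver median width was 0.24 on the log2 scale in 3 naked mole-rats (0.13 to 0.35) and -0.36 in 3 guinea pigs (-0.55 to -0.25). Heart minus liver median fold was -0.10 in the naked mole-rats (-0.18 to -0.03) and 0.17 in the guinea pigs (0.12 to 0.29). It was -0.15 in 4 Damaraland mole-rats (-0.29 to -0.01), also against 0.17 in the guinea pigs. With the 51446 top peaks of each list, at least 1 species of each contrast had mixed signs, so none of the 3 held. Median width in NMR35 was then 669 bases in heart and 674 in liver. Median fold in GuineaPig7, GuineaPig8 and GuineaPig9 was 8.19, 8.20 and 7.88 in heart and 8.64, 7.98 and 8.36 in liver.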

How the results depend on the processing

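The 18 summaries recomputed were 14 counts of comparisons that passed and 4 mean reproducibilities. Of their 347 values under other settings, 332 stayed within 1.5 times the count or 1 SD of the mean and 15 moved. The 14 counts were 0 at the main setting, and a 0 that stayed 0 was scored as unchanged. Some could not change, since in the H3K4me3 sign-flip tests the group sizes let no test pass. The 332 is therefore not a measure of stability. The counts of 36 comparisons that passed went from 0 to 1 each for spacing and for near neighbours with the 10000 top peaks on scaffolds reached to 1 Mb, and from 0 to 1 for the summit of wide peaks at 2000 bases, settings added after the data had been seen, in which no library was left out; the cause was not tested. With library series as strata 0 of 36 passed and the lowest exact permutation p was 0.107. Labels were exchanged only within a series there, and the few libraries per series and species let no comparison pass after adjustment. Reproducibility moved with the overlap rule (1 base, then 50% of the longer) and with equal numbers: 67.7%, 36.1% and 70.2% in naked mole-rats, 66.2%, 32.7% and 69.7% in Damaraland mole-rats, 72.2%, 40.7% and 73.7% in guinea pigs, and 35.5% with the longer peak in the mouse. Leaving out each replicate gave 60.0% to 61.7% and 65.6% to 67.3% in naked mole-rats and guinea pig. With equal numbers 2 differences reversed, width of Damaraland mole-rat minus mouse (0.0069) and tail of guinea pig minus mouse (-0.039 against 0.14). With the animal as replicate block, 0 of 18 paired heart and liver comparisons passed (lowest adjusted p = 0.5, exact sign-flip test), but with 3 or 4 animals per species the smallest p is 0.25 or 0.125, so none could pass. Leaving out the mouse pool gave 4 comparisons with an unadjusted p under 0.05 and 0 that passed (lowest adjusted p = 0.286, exact permutation test). Unknown depth limits every fold, width and gap, and 3 against 3 libraries cannot give a p under 0.1.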
